A study of Mus musculus with 23 samples.

Results

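The interaction between the App knock-in and the loss of p16 was examined in mouse hippocampus, as the part of the App response that differs between mice with and without p16. For each gene it was the effect of the knock-in without p16 (AppNLGF_p16KO minus p16KO) less the effect with p16 (AppNLGF minus WT), taken over 23 libraries from the genotype labels alone. Of the 37173 genes in the deposited table, 19423 had enough reads to be tested. A positive value means that the App effect was shifted upwards without p16, and a negative value that it was shifted downwards. The App effect with p16 and the App effect without p16 rest on separate libraries, so neither shares a control with the other.

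Both hippocampi of mice aged about 5 months were used, with 1 library per mouse. Genotypes numbered 4: wild type (WT, n = 6), homozygous loss of p16 (labelled P16 KO/KO, here p16KO, n = 6), the homozygous App knock-in (labelled APP NLGF/NLGF, here AppNLGF, n = 5) and both together (AppNLGF_p16KO, n = 6). No agent was given to any group, and the labels do not say which exons of the p16 locus are missing, or whether the 4 genotypes were littermates. They give no handling batch either, and the library numbers run in blocks by genotype, so the order of handling and the genotype cannot be told apart.

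The NLGF allele is a knock-in of familial Alzheimer's disease mutations into the mouse's own App gene, with a humanised amyloid-beta sequence, and such mice form amyloid plaques without App overexpression. Around plaques, microglia adopt an activated state known as disease-associated, in which Trem2 and its adaptor Tyrobp signal and genes such as Cst7, Clec7a and Itgax come on. The p16 protein, a product of Cdkn2a, inhibits the cyclin D-dependent kinases and is a widely used marker of cellular senescence, so the crossed design asks whether its loss alters the response to App.

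Library totals ran from 40693561 to 61178839 counts (median 55138908), and mitochondrially encoded genes took 2.79 to 3.99% of them. Xist-expressing libraries numbered 3 of 6 in WT, 3 of 6 in p16KO, 2 of 5 in AppNLGF and 3 of 6 in AppNLGF_p16KO. Reads assigned to Cdkn2a summed to 17 in WT, 4 in p16KO, 25 in AppNLGF and 24 in AppNLGF_p16KO, which was too few to test. The gene's count pools the exons of its different products, so it does not check the labels. Subfield markers of the hippocampus were present in every library: the mean level of 16 dentate granule genes lay between 5.00 and 6.00 log2 CPM (read counts relative to the scaled library total), and that of 13 CA1 genes between 6.05 and 6.46.

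Some AppNLGF_p16KO libraries stood apart in ways that touch the contrast. Alad, which encodes an enzyme of haem synthesis on chromosome 4, was at 16.7 to 18.6 CPM in WT, 27.3 to 43.2 in p16KO, and 18.7, 20.8, 23.1, 18.3 and 19.3 in AppNLGF. It was at 36.6 to 39.7 in AppNLGF_p16KO libraries 18 to 21, but at 23.0 in library 22 and 29.0 in library 23. Its neighbour Hdhd3, a predicted phosphatase, gave the same picture, with 8.98 to 11.4 CPM in libraries 18 to 21 against 6.10 and 6.86 in libraries 22 and 23. Library 23 was also lowest of its group for nuclear genes of oxidative phosphorylation (mean log2 level 6.35, others 6.56 to 6.78), and library 21 exceeded the submitters' distance limit for outliers (squared distance 12.4, limit 11.1). Library 22 thus lay within AppNLGF for Alad, while library 23 lay within p16KO for that gene. For Hdhd3, library 22 was just under the highest WT value (6.14 CPM) and library 23 exceeded it. Both libraries lay below every p16KO library for Hdhd3, where the lowest held 8.40 CPM. They also lay above every AppNLGF library, of which the highest held 5.06 CPM, so their Hdhd3 levels were intermediate. Libraries 22 and 23 are called AppNLGF_p16KO as labelled, but these reads do not check that label, and every value of the double mutant rests on it. All libraries were kept, and the main counts and some list medians are also given without libraries 22 and 23.

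No gene passed the test for the interaction. In edgeR's quasi-likelihood test 0 of 19423 genes (0% called) had a Benjamini-Hochberg adjusted p below 0.05, and the smallest adjusted p was 0.897. At an unadjusted p below 0.05 there were 1021 genes, 5.26% of those tested, against the 5% expected when nothing differs, and 608 of them were positive (3.13% of those tested) and 413 negative (2.13%). DESeq2 called 1 gene, the predicted gene Gm18733 (adjusted p = 0.0101), which had 0 reads in 15 of 23 libraries and an edgeR unadjusted p of 0.174. Without libraries 22 and 23 the count called stayed at 0, but 2999 genes (15.3%) fell below an unadjusted p of 0.05 and the smallest adjusted p was 0.111.

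The precision of the contrast sets what this count can show. The median standard error of the interaction was 0.15 log2, and 0.095 for the 6471 genes above 32 CPM. A gene standing alone would have needed a difference of 0.929 log2 at the median error, or 0.574 log2 among the abundant genes, to be called. For 15065 genes (77.6%) the 95% interval lay within 1 log2 (2-fold) of 0, so a larger difference lay outside their interval. At this number of mice, a lone gene at or above the median error would not have been called below 0.929 log2.

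The response to App itself was plain in both backgrounds and was led by microglial genes. In AppNLGF against WT 62 genes (0.319% of those tested) were called, 59 of them higher (0.304%). In AppNLGF_p16KO against p16KO 48 genes (0.247%) were called, 43 of them higher (0.221%). For the loss of p16, 60 genes (0.309%) were called in p16KO against WT and 6 (0.0309%) in AppNLGF_p16KO against AppNLGF. The lists shared 32 genes, 51.6% of the first and 66.7% of the second, and 0 of those 32 had an unadjusted interaction p below 0.05. Genes called in both backgrounds are chosen for being alike. The other 30 and 16 genes passed in 1 background alone, but 28 of the 30 and 15 of the 16 had the same sign in the other background, and 17 of the 30 and 7 of the 16 had an unadjusted interaction p below 0.05. Those genes are chosen for being unlike, and the difference itself passed the adjusted test for none of them.

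Cst7, a cysteine protease inhibitor of activated microglia, had the smallest p. Its level was 0.0722 to 0.366 CPM in WT (median 0.166) and 0.0440 to 0.306 in p16KO (median 0.0969). It was 7.84, 5.50, 6.92, 3.71 and 5.69 CPM in the AppNLGF libraries, and 3.68 to 6.58 in AppNLGF_p16KO (median 4.43). Every knock-in library was far above every library without the knock-in, in both backgrounds. The App effect was 5.04 ± 0.33 log2 (SE) with p16 (adjusted p = 2.3e-09) and 5.12 ± 0.34 without p16 (adjusted p = 2.82e-09). The interaction was 0.07 log2, with a 95% interval of -0.88 to 1.03.

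Trem2, the lipid-sensing receptor of microglia, was at 10.1 to 13.4 CPM in WT (median 11.3) and 11.5 to 15.6 in p16KO (median 12.7). With the knock-in it reached 23.0, 21.1, 26.0, 20.9 and 22.9 CPM in AppNLGF, and 20.6 to 28.5 in AppNLGF_p16KO (median 23.5). The knock-in and other libraries did not overlap in either background, while the knock-in libraries with and without p16 did. The App effect of Trem2 was 1.01 ± 0.09 log2 with p16 and 0.85 ± 0.09 without it, and the interaction was -0.15 (95% interval -0.41 to 0.10, adjusted p = 0.902). Its adaptor Tyrobp gave similar values: 24.4 ± 2.83 CPM in AppNLGF (SD, n = 5) over 12.1 ± 1.04 in WT (n = 6), and 25.9 ± 3.13 in AppNLGF_p16KO over 14.0 ± 1.29 in p16KO. Its interaction was -0.12 (95% interval -0.37 to 0.13).

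The pattern recognition receptor Clec7a was at 4.25, 3.42, 3.44, 2.63 and 5.06 CPM in AppNLGF and at 3.03 to 4.49 in AppNLGF_p16KO (median 3.49), against medians of 0.493 in WT and 0.498 in p16KO. Its App effects were 2.83 ± 0.24 log2 with p16 and 2.77 ± 0.23 without it. Among the rising genes with the smallest p, the interaction was positive for Cst7, Cd68 and Cd52 and negative for Clec7a, Ccl6, Tyrobp, Itgax, Trem2, Ccl3, Arl11 and Slc15a3. The estimate furthest from 0 was that of the chemokine Ccl3, with App effects of 3.21 and 2.27 log2 and an interaction of -0.95 (95% interval -1.97 to 0.07), on levels of 0.702 to 2.07 CPM in the knock-in libraries.

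**Figure D1:**
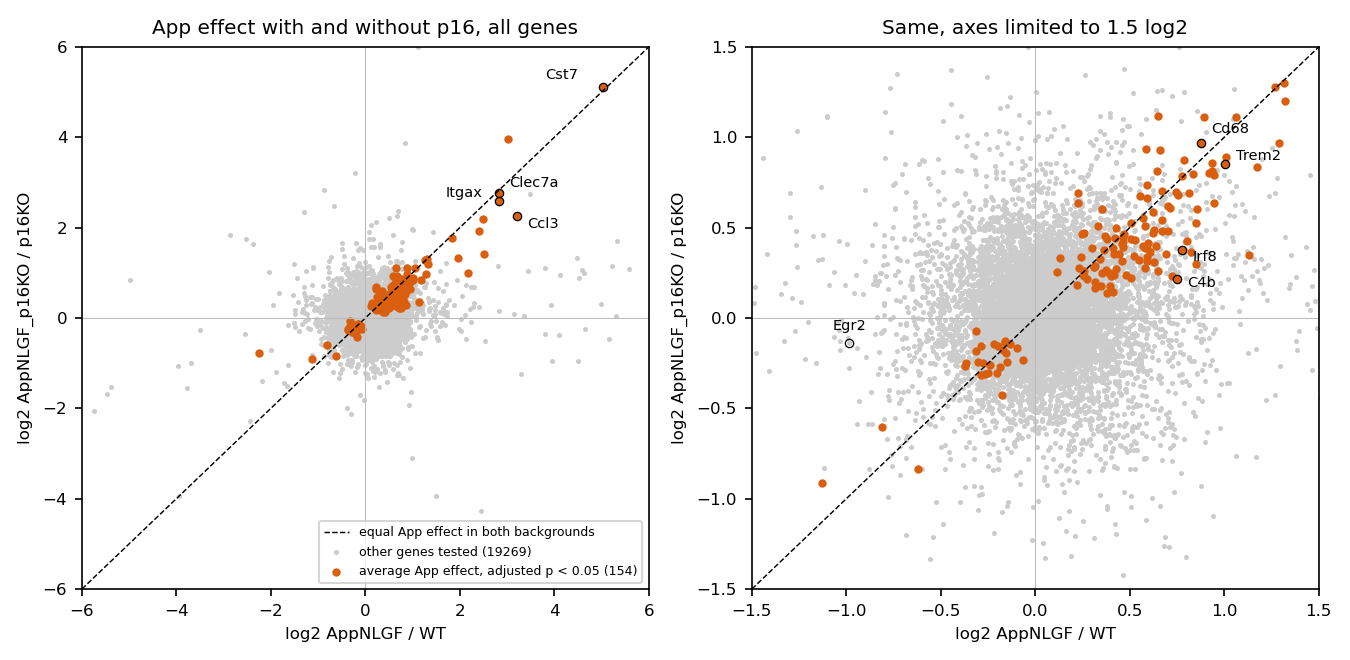
The App effect with p16 (horizontal axis, log2 AppNLGF / WT) against the App effect without p16 (vertical axis, log2 AppNLGF_p16KO / p16KO), 1 point per gene, for the full range at left (7 genes lie outside the axes) and up to 1.5 log2 at right. The 154 genes that passed the test of the average App effect (orange) lie in the upper right and lower left, while the other genes (grey) form a cloud around 0.

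To compare sizes across the whole response, genes were chosen by the average of both App effects, which 154 genes passed (0.793% of those tested, 126 higher, which is 0.649%, and 28 lower, which is 0.144%). All 154 had the same sign in both backgrounds, which choosing by the average favours, against 10381 of the 19423 genes tested. Across these genes, which are not independent replicates, the App effects had a Pearson r of 0.955 and a Spearman rho of 0.845, which the choice also raises, against an r of 0.196 over all genes. The median size of the effect was 0.54 log2 with p16 and 0.41 without. It was nearer to 0 without p16 for 106 of the 154 genes (68.8%), against 50.5% of all genes tested, with 92 of 126 among the rising genes and 14 of 28 among the falling ones. The median interaction, signed so that a negative value is a smaller response, was -0.071 log2, which is less than the standard error of a typical single gene. It ran from -0.12 (without WT library 3) to -0.042 (without AppNLGF_p16KO library 23). Its standard error by the jackknife, which leaves out each library in turn, was 0.11 log2, larger than the median itself. That of the share of 68.8% was 21 percentage points. The 154 genes hold many from 1 cell type that vary together between mice, and no test was made of the count. It was 57.8% without libraries 22 and 23.

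In tissue RNA, fewer microglia and less RNA per microglial cell cannot be told apart. Of 40 disease-associated microglial genes, 0 passed the interaction test, 14 were positive and 26 negative, with a median of -0.061 log2. That median was -0.094 without libraries 22 and 23, and ran from -0.11 (without WT library 3) to -0.016 (without WT library 5). The median App effect of that list was 0.34 log2 with p16 and 0.25 without. Its summed level, as the mean log2 CPM, lay between 3.93 and 4.22 in WT and between 4.12 and 4.27 in p16KO. It lay between 4.58 and 4.72 in AppNLGF and between 4.59 and 4.79 in AppNLGF_p16KO, so the knock-in groups covered much the same range. Its most abundant members include Ctsd, a lysosomal protease, at 201.1 ± 20.0 CPM in WT, 240.7 ± 28.8 in p16KO, 293.9 ± 28.0 in AppNLGF and 300.2 ± 32.9 in AppNLGF_p16KO (SD). The App effect on Ctsd was 0.55 log2 with p16 and 0.32 without, and the interaction was -0.23 ± 0.12 (adjusted p = 0.897). Of 26 homeostatic microglial genes 6 were positive and 20 negative (median -0.084, and -0.14 without libraries 22 and 23, -0.037 without AppNLGF library 15 and -0.13 without AppNLGF library 16), with the list at 3.80 ± 0.06 in WT, 3.83 ± 0.06 in p16KO, 4.17 ± 0.08 in AppNLGF and 4.11 ± 0.07 in AppNLGF_p16KO (SD).

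Among the 154 App response genes, 16 (10.4%) had an unadjusted interaction p below 0.05, against 5.26% of all genes, and 13 of them had the smaller effect without p16. They were Csf3r (the receptor for granulocyte colony-stimulating factor), Irf8 (a transcription factor of microglia), Ptpn6 (an inhibitory phosphatase), Fcer1g (an immune receptor adaptor), Cyba (a subunit of the phagocyte oxidase), Capg, Pld4, Arpc1b, Unc93b1, Trim14, C1qa, C4b and Stmn4, a neuronal tubulin-binding protein and the 1 member that fell with App. The opposite direction was held by Hcls1, Lsp1 and the chaperone Dnajb5. Over all genes tested, 1021 had an unadjusted interaction p below 0.05, 557 with the smaller effect without p16 and 464 with the larger. Csf3r was at 4.88 ± 0.333 CPM in AppNLGF over 2.70 ± 0.342 in WT (SD), and at 4.03 ± 0.692 in AppNLGF_p16KO over 3.28 ± 0.501 in p16KO, and its App effect was 0.85 log2 with p16 and 0.30 without. In 12 of these 13 genes the estimate of p16KO minus WT was above 0, between 0.11 and 0.57 log2, and for Stmn4 it was -0.0052. That difference is part of the interaction and is no separate evidence.

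**Figure D2:**
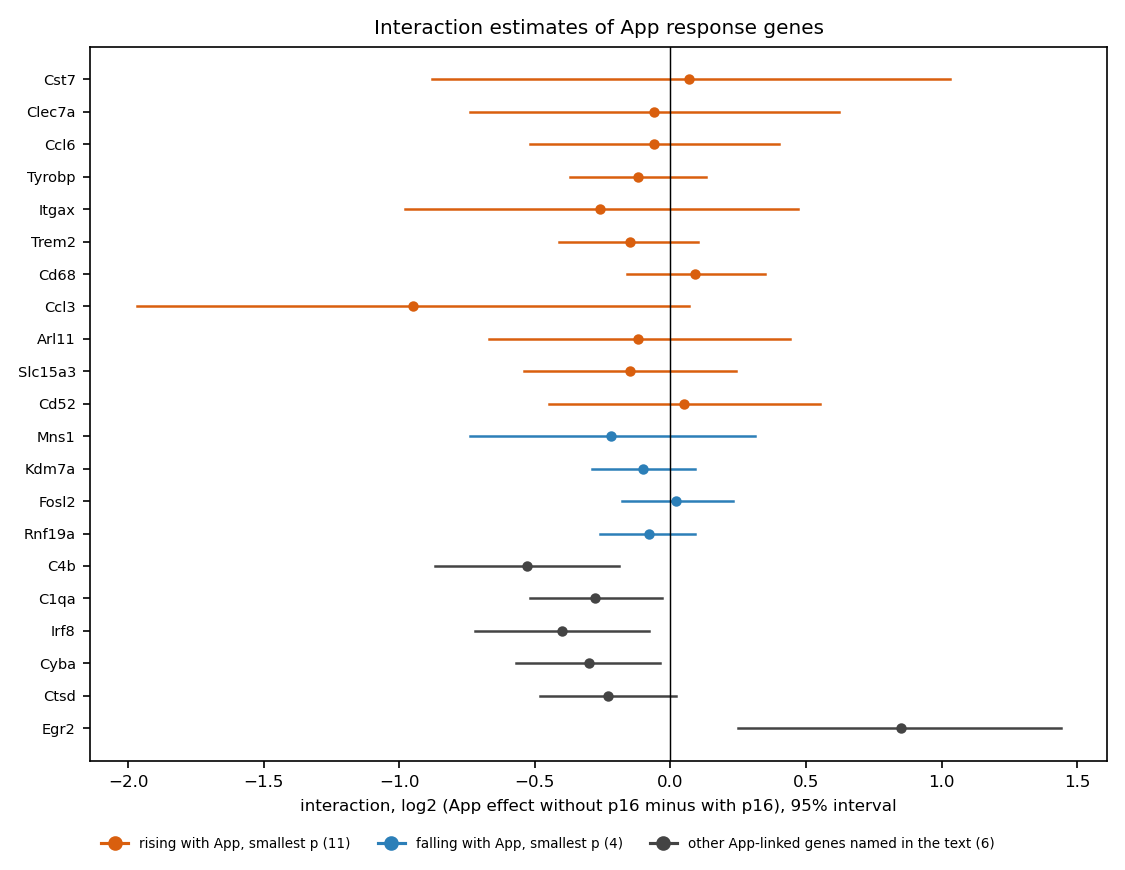
Interaction in log2 (points) with its 95% interval (lines) for 11 rising and 4 falling genes of the average App effect with the smallest p, and for 6 other genes named in the text. The intervals of these 15 leading App genes include 0, and those of C4b, C1qa, Irf8, Cyba and Egr2 do not, before adjustment over 19423 genes.

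Of 21 complement genes, 2 had an unadjusted interaction p below 0.05 (9.52%), both negative, against 2.13% of all genes in that direction. They were C4b and C1qa, shown here by library because their p was smallest. Clu, the most abundant gene of that list, had an interaction of -0.09 ± 0.08 log2 (unadjusted p = 0.298). C4b, the complement component that astrocytes and oligodendrocytes make in disease, was at 24.2 to 28.5 CPM in WT (median 26.4) and 25.2 to 38.8 in p16KO (median 30.3). It was at 48.3, 35.7, 40.0, 53.8 and 44.2 CPM in AppNLGF, above every WT library, and at 27.8 to 41.4 in AppNLGF_p16KO (median 36.7), which overlaps p16KO. The App effect on C4b was 0.75 ± 0.12 log2 with p16 (adjusted p = 0.00143) and 0.22 ± 0.11 without (adjusted p = 0.668). The interaction was -0.53 ± 0.16 log2 (unadjusted p = 0.00353, adjusted p = 0.897), so the difference between the effects did not pass. C4b has a near-identical neighbour, C4a, on chromosome 17, and the division of reads between them is uncertain.

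C1qa, a subunit of the initiator C1q made by microglia, was at 36.9 to 47.3 CPM in WT (median 42.8), 48.7 to 64.4 in p16KO (median 54.1), 69.4, 68.0, 69.8, 52.7 and 65.0 in AppNLGF, and 60.3 to 79.0 in AppNLGF_p16KO (median 66.9). The knock-in groups overlapped widely, and the WT libraries lay below those of every other group. The App effect was 0.59 ± 0.09 log2 with p16 and 0.32 ± 0.08 without, and the interaction was -0.28 (adjusted p = 0.897). C1qa differed by 0.35 log2 in p16KO minus WT and by 0.07 in AppNLGF_p16KO minus AppNLGF, so its level was not lower in the double mutant. Over the list of 21 complement genes 0 passed, 2 were positive and 19 negative, with a median of -0.19 log2 against 0.0038 for all genes. Without p16KO library 7 this median was -0.09, with 6 positive. Library 7 held 19.2 CPM of Lcn2, a secreted protein of inflammation, against 0.0370 to 0.251 in the other p16KO libraries, and without it the interaction was -0.45 log2 for C4b and -0.22 for C1qa.

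The gene with the smallest interaction p was C5ar2, the second receptor for the complement fragment C5a, on chromosome 7 (16234585 to 16244154, GRCm38). Its level was 0.494 to 0.713 CPM in WT (median 0.597), 0.616 to 1.10 in p16KO (median 0.843), 1.26, 0.932, 1.17, 1.05 and 1.15 in AppNLGF, and 0.699 to 0.861 in AppNLGF_p16KO (median 0.818). The AppNLGF libraries lay above every WT and every AppNLGF_p16KO library, and the AppNLGF_p16KO libraries lay within the range of p16KO. C5ar2 rose by 0.87 ± 0.16 log2 with App in the presence of p16 (adjusted p = 0.00606), and its App effect without p16 was -0.07 ± 0.15 (adjusted p = 0.931). The interaction was -0.95 ± 0.22 log2 (95% interval -1.40 to -0.49, unadjusted p = 0.000249), with an adjusted p of 0.897 over all genes. Omitting single libraries gave -1.02 to -0.86.

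The other negative genes by p were mostly scarce. Sult1c1, a sulfotransferase, was at 0.114, 0.128, 0.522, 0.249 and 0.293 CPM in AppNLGF and at 0 to 0.167 in AppNLGF_p16KO, with medians of 0.152 in WT and 0.188 in p16KO. Its ranges overlapped between groups. Aox1 (aldehyde oxidase, -0.55 ± 0.16), Nfkbiz (an inducible regulator of NF-kappaB, -0.39 ± 0.11), Vax1 (a homeobox factor, -1.17 ± 0.35), Mfsd13b (-0.71 ± 0.21) and the ribosomal pseudogene Rpl13a-ps1 (-1.55 ± 0.40) were also among them. Rpl13a-ps1 may share reads with its parent gene, and its values are uncertain.

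Among positive genes the smallest p belonged to Bnip5, on chromosome 17 (28896392 to 28915324, GRCm38). It was at 5.68 to 7.42 CPM in WT (median 6.38), 4.47 to 5.81 in p16KO (median 5.24), 5.18, 5.79, 5.46, 5.52 and 7.28 in AppNLGF, and 6.17 to 8.44 in AppNLGF_p16KO (median 7.25). All 6 AppNLGF_p16KO libraries were above all 6 p16KO libraries, while AppNLGF and WT overlapped. Bnip5 rose with App without p16 by 0.47 ± 0.10 log2 (adjusted p = 0.0427), its App effect with p16 was -0.15 ± 0.11, and the interaction was 0.62 ± 0.15 (unadjusted p = 0.000297, adjusted p = 0.897).

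Lgi2, a secreted neuronal protein of the family linked to epilepsy, was at 80.3 to 109.5 CPM in WT (median 88.0), 53.1 to 72.9 in p16KO (median 61.3), 86.5, 73.2, 48.7, 81.3 and 96.9 in AppNLGF and 73.7 to 147.5 in AppNLGF_p16KO (median 87.7). The p16KO libraries were below every WT and every AppNLGF_p16KO library, so the positive value rests on a low p16KO group. The highest value, 147.5 CPM, was that of library 21. Its interaction was 0.89 ± 0.23 log2, and 0.73 without that library.

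Pamr1, a secreted protease-like protein, had medians of 16.8 CPM in WT, 14.1 in p16KO and 15.6 in AppNLGF_p16KO, with 12.1, 12.5, 11.7, 15.1 and 15.0 in AppNLGF, and an interaction of 0.60 ± 0.15 log2. Gabra3, a subunit of the GABA-A receptor, had medians of 104.3, 89.0 and 106.3 CPM in the same groups, with 97.9, 80.7, 87.8, 87.5 and 106.9 in AppNLGF, and an interaction of 0.49 ± 0.13. In both genes WT and AppNLGF_p16KO were high, p16KO and AppNLGF were lower in their medians, and the ranges of the groups overlapped. Mc5r (a melanocortin receptor, 0.98 ± 0.27), Tmed10-ps (a pseudogene, 1.48 ± 0.43), Fam72a (0.64 ± 0.19) and Bmerb1 (0.24 ± 0.07) made up the 8 positive genes, each with an adjusted p of 0.897.

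**Figure D3:**
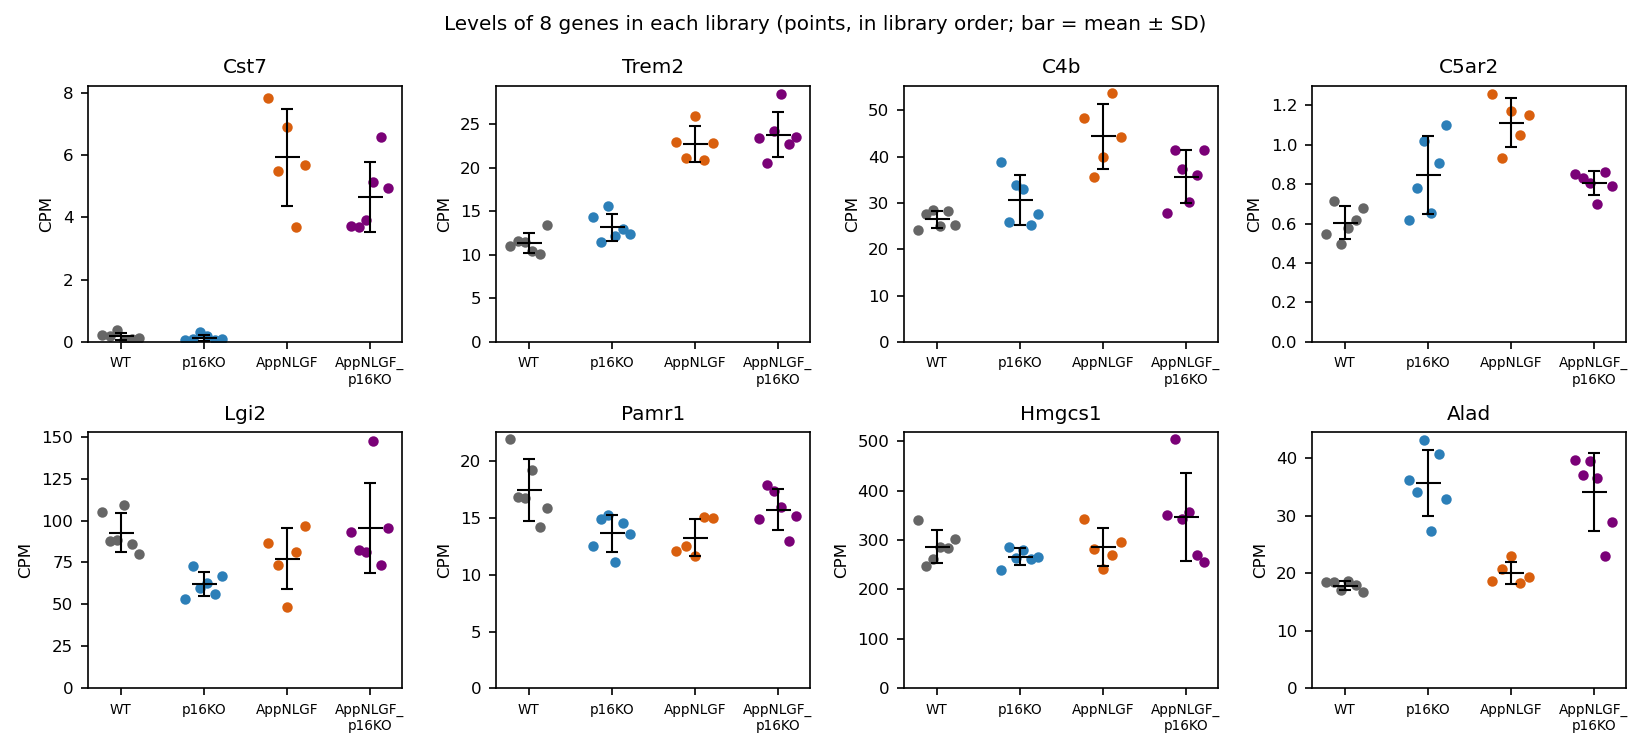
CPM of 8 genes in each library (points) with the mean and SD (bars) for the 4 genotypes, from 0. Cst7 and Trem2 are high in both knock-in groups, C4b and C5ar2 are highest in AppNLGF, Lgi2 is lowest in p16KO, Pamr1 is low in p16KO and AppNLGF, Hmgcs1 is highest in AppNLGF_p16KO library 19, and Alad is higher in p16KO than in WT and AppNLGF, with AppNLGF_p16KO libraries 22 and 23 lowest of their group.

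Groups of related genes were described by their median interaction and the number of members in each direction, in 38 lists with 970 distinct genes tested. Of those 970 genes 0 passed the adjusted test and 59 (6.08%) had an unadjusted p below 0.05, against 5.26% of all genes. The median was positive in 19 lists and negative in 19, and exceeded 0.1 log2 in either direction in 11. These counts describe the lists and do not set any list apart from others.

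Genes of cholesterol synthesis, with those that regulate it, were positive in all but 1 member. Most cholesterol of the brain is made locally, and when sterols are low the factor SREBP2 turns on the pathway's enzymes and the feedback protein Insig1 together. Of 24 genes 23 had a positive interaction, against 50.9% of all genes, 8 had an unadjusted p below 0.05 (33.3%, against 3.13% of all genes in that direction), and 0 passed after adjustment. The median interaction was 0.24 log2, made of a median App effect of 0.00065 with p16 and 0.25 without. They included Hsd17b7, Insig1, Sqle, Cyp51, Pmvk and Hmgcs1, named after their values were seen.

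Promoter sequences of 3 of these genes are shown because 23 of 24 members had the same sign. Each runs 5′ to 3′ from 250 bases before to 50 bases after the start in RefSeq (GRCm38.p6), and capitals mark the CCAAT box on either strand (CCAAT or its reverse ATTGG) and the core of a sterol regulatory element (TCACCCCA). The windows are chr1:169969156-169969455 on the minus strand for Hsd17b7, chr13:119690101-119690400 on the plus strand for Hmgcs1 and chr5:28071162-28071461 on the plus strand for Insig1.
Hsd17b7: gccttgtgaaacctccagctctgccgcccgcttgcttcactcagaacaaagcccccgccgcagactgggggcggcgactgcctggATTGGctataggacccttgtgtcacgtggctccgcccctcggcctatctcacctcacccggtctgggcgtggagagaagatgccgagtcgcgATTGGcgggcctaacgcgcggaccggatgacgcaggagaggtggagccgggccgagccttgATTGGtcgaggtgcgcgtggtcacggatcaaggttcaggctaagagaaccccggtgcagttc
Hmgcs1: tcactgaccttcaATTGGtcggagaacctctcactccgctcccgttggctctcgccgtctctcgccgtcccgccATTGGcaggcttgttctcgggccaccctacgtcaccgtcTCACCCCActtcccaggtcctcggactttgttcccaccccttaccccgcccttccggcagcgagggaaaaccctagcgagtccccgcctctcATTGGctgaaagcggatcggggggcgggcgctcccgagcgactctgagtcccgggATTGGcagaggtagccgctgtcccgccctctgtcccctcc
Insig1: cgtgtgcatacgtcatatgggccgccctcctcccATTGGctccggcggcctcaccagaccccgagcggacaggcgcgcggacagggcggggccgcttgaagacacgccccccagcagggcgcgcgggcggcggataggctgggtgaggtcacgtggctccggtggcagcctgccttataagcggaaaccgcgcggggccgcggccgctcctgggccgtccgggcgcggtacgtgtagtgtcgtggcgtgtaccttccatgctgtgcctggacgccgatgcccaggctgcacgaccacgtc
Of the 24 genes 16 had a window, and 16 of 16 held a CCAAT box, against 41.1% of 27025 genes with a window. The sterol core was in 2 of 16, against 1.77% of genes. Both motifs were added after the values were seen, and a match describes these letters only.

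Hmgcs1, which makes the HMG-CoA that feeds the pathway, was at 343.2, 281.8, 240.5, 269.3 and 296.0 CPM in AppNLGF, with medians of 284.7 in WT, 264.8 in p16KO and 346.6 in AppNLGF_p16KO. In AppNLGF_p16KO it ran from 254.8 to 504.2 CPM, with the top value in library 19 and the lowest in library 23. Hsd17b7, a reductase of the same pathway, ran from 25.9 to 44.4 CPM in AppNLGF_p16KO (median 37.3), again with library 19 highest and library 23 lowest, against medians of 32.3 in WT and 30.7 in p16KO and 31.8, 34.3, 27.8, 27.7 and 28.5 in AppNLGF. The interactions were 0.38 ± 0.18 log2 for Hmgcs1 and 0.37 ± 0.13 for Hsd17b7.

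The list's mean level shows the spread within the double mutant. It was 5.33, 5.58, 5.32, 5.52, 5.21 and 5.09 log2 CPM in libraries 18 to 23, against 5.02 to 5.31 in WT, 5.01 to 5.16 in p16KO and 5.07 to 5.22 in AppNLGF. Libraries 18 to 21 were above every other library, and libraries 22 and 23 were within the range of the other groups. Without libraries 22 and 23 the list's median was 0.35 log2 with 22 of 24 positive and 18 at an unadjusted p below 0.05, where 15.3% of all genes were, in either direction. Without library 19 it was 0.19 with 5 at that level.

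**Figure D4:**
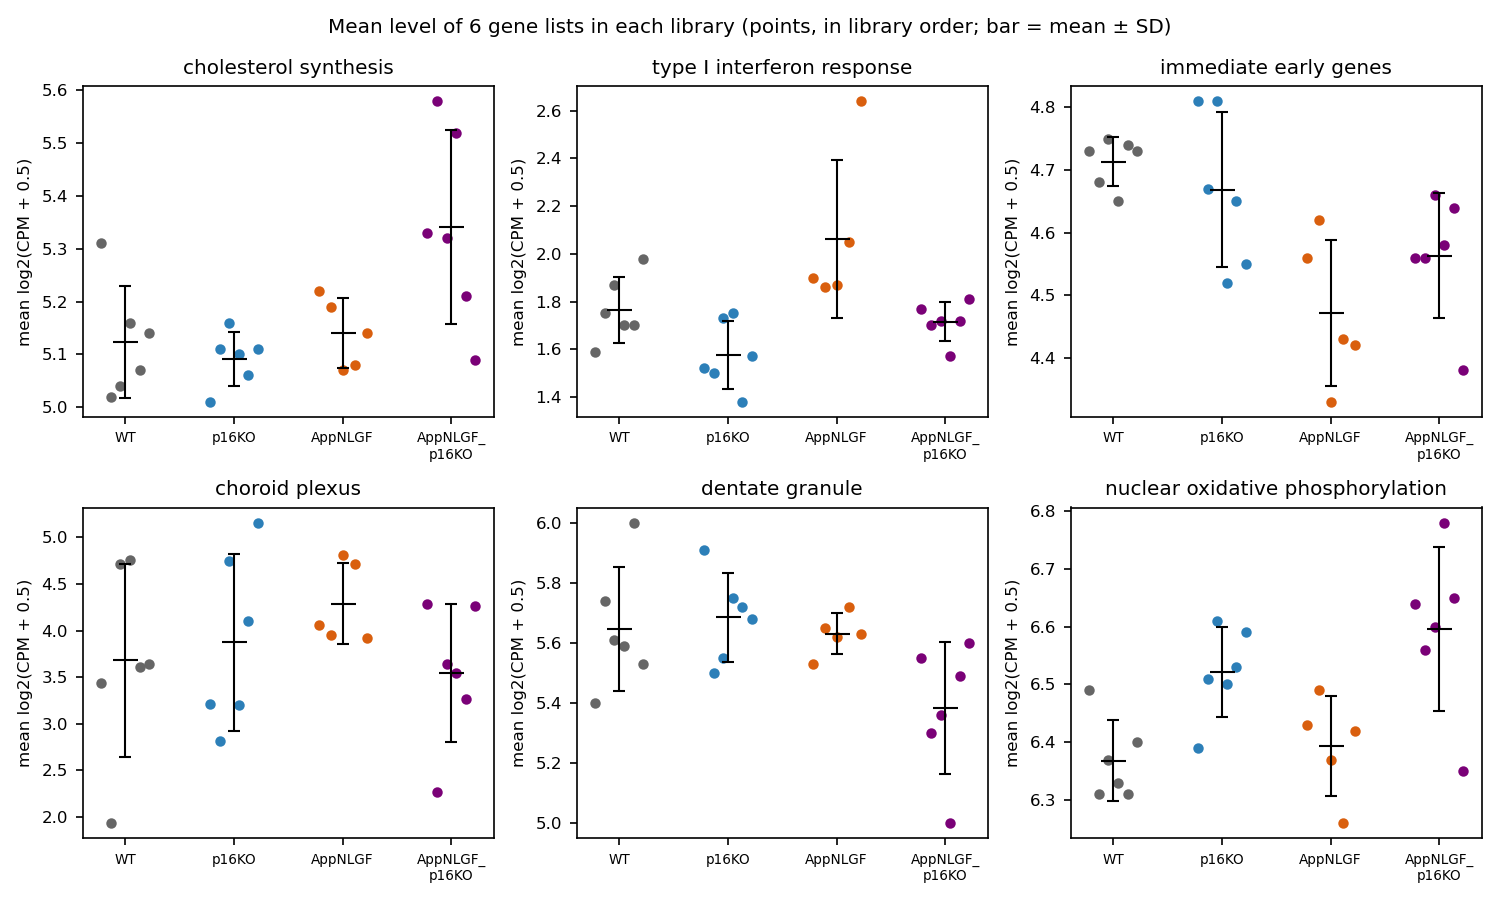
Mean log2 (CPM + 0.5) over the genes of 6 lists in each library (points, in order of library number) with the mean and SD (bars) per genotype; the vertical axes do not start at 0. The cholesterol list is highest in AppNLGF_p16KO libraries 18 to 21, the interferon list in AppNLGF library 17, and the choroid plexus list ranges from 1.93 to 5.16 within WT and p16KO.

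Interferon-stimulated genes, which cells turn on in response to type I interferon, had a median of -0.24 log2, with 8 of 38 positive, 1 at an unadjusted p below 0.05 and 0 passing. The median App effect was 0.44 log2 with p16 and 0.19 without. Mx1, an antiviral GTPase, was at 0.552, 0.146, 0.296, 0.586 and 1.51 CPM in AppNLGF, with medians of 0.206 in WT, 0.176 in p16KO and 0.172 in AppNLGF_p16KO. The value of 1.51 CPM was that of library 17, which was also highest for the whole list (mean log2 level 2.64, others of its group 1.86 to 2.05). Without library 17 the list's median was -0.034 and its App effects were 0.19 log2 in both backgrounds, so the negative value rests on that library. The interaction of Mx1 was -1.19 ± 0.60 log2, and -0.57 without library 17. The core of the interferon-stimulated response element (GAAANNGAA, either strand) was in the RefSeq promoter window of 15 of the 26 list genes with a window, against 9.76% of genes.

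Immediate early genes, which neurons induce within minutes of activity, had App effects below 0 in both backgrounds, with a median of -0.27 log2 with p16 and -0.13 without. Of 33 genes 25 had a positive interaction (75.8%, against 50.9% of all genes), with a median of 0.095. An unadjusted p below 0.05 was reached by 4 (12.1%), all positive, against 3.13% of all genes in that direction, and 0 passed. Egr2, a zinc finger factor, was at 2.00, 2.45, 1.84, 1.51 and 2.00 CPM in AppNLGF, with 2.74 to 5.70 in WT (median 3.72), 2.12 to 5.43 in p16KO (median 3.45) and 2.23 to 4.26 in AppNLGF_p16KO (median 3.27). The AppNLGF libraries were below every WT library, and AppNLGF_p16KO overlapped with p16KO. Egr2 fell by 0.98 on the log2 scale with p16 (adjusted p = 0.0328), its App effect without p16 was -0.14, and the interaction was 0.85 ± 0.29 (unadjusted p = 0.00699, adjusted p = 0.897). That interaction was 0.70 without WT library 1, which held the value of 5.70 CPM.

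Some lists of markers of tissue next to or within the hippocampus had most members on 1 side of 0, and others did not. The choroid plexus list was negative in 24 of 24 genes, with a median of -0.90 log2 and 0 genes at an unadjusted p below 0.05, and the median was -0.51 without p16KO library 12. Ttr, the transthyretin that choroid plexus secretes, was at 78.6 to 2964 CPM in WT, 530.2 to 5397 in p16KO, 1788, 1804, 3540.0, 3063 and 1335 in AppNLGF and 231.8 to 2386 in AppNLGF_p16KO. The 4 groups overlapped across this range. Ependymal genes had a median of -0.23 (4 of 24 positive). Over single libraries left out it ran from -0.42 (without AppNLGF_p16KO library 23) to -0.17 (without p16KO library 12). It was -0.36 without p16KO library 8 and -0.43 without libraries 22 and 23. Of 22 meningeal and fibroblast genes 17 were positive (median 0.18, from 0.088 without AppNLGF library 14 to 0.35 without AppNLGF library 16). Dentate granule genes had a median of -0.26 with 1 of 16 positive and 3 at an unadjusted p below 0.05. Without AppNLGF_p16KO library 21, past the distance limit, it was -0.18 with 1 at that level. It was -0.19 with 0 without p16KO library 7, and -0.36 with 6 without libraries 22 and 23. Of all genes, 5.26% were at that level in the main fit, in either direction. That share was 4.91% without library 21, 4.35% without p16KO library 7 and 15.3% without libraries 22 and 23. The mean level of the dentate granule genes was 5.00 to 5.60 log2 CPM in AppNLGF_p16KO, 5.40 to 6.00 in WT, 5.50 to 5.91 in p16KO and 5.53 to 5.72 in AppNLGF. CA1 genes were positive in 8 of 13 (median 0.17, and 0.1 without WT library 1), and CA2 and CA3 genes in 8 of 19 (median -0.034, from -0.086 to 0.006 over single libraries left out). The thalamic list had a median of 0.21 (16 of 23 positive), which was -0.037 without WT library 4, whose level of 4.72 was above the next highest of its group at 3.58. Their part in the other results was not tested.

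Lists tied to p16 itself had medians between -0.082 and 0.051 log2. For the cyclin D-dependent kinases, their inhibitors and the Rb family, 7 of 19 were positive (median -0.041), and for E2F targets and proliferation genes 19 of 28 (median 0.051). For p53 targets 13 of 25 were positive (median 0.044). For secreted factors of senescent cells 11 of 31 were (median -0.082). Leaving out single libraries gave medians of -0.063 to -0.013, 0.015 to 0.091, -0.011 to 0.086 and -0.12 to -0.028 in that order, so the p53 list changed sign. In these 4 lists 0 genes passed, and 0, 0, 0 and 3 had an unadjusted p below 0.05. Cdkn2b, the neighbouring inhibitor p15, had an interaction of -0.11 ± 0.32 log2, Mtap 0.21 ± 0.12, and App 0.03 ± 0.06 with levels of 1457 to 1752 CPM in the 23 libraries.

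**Figure D5:**
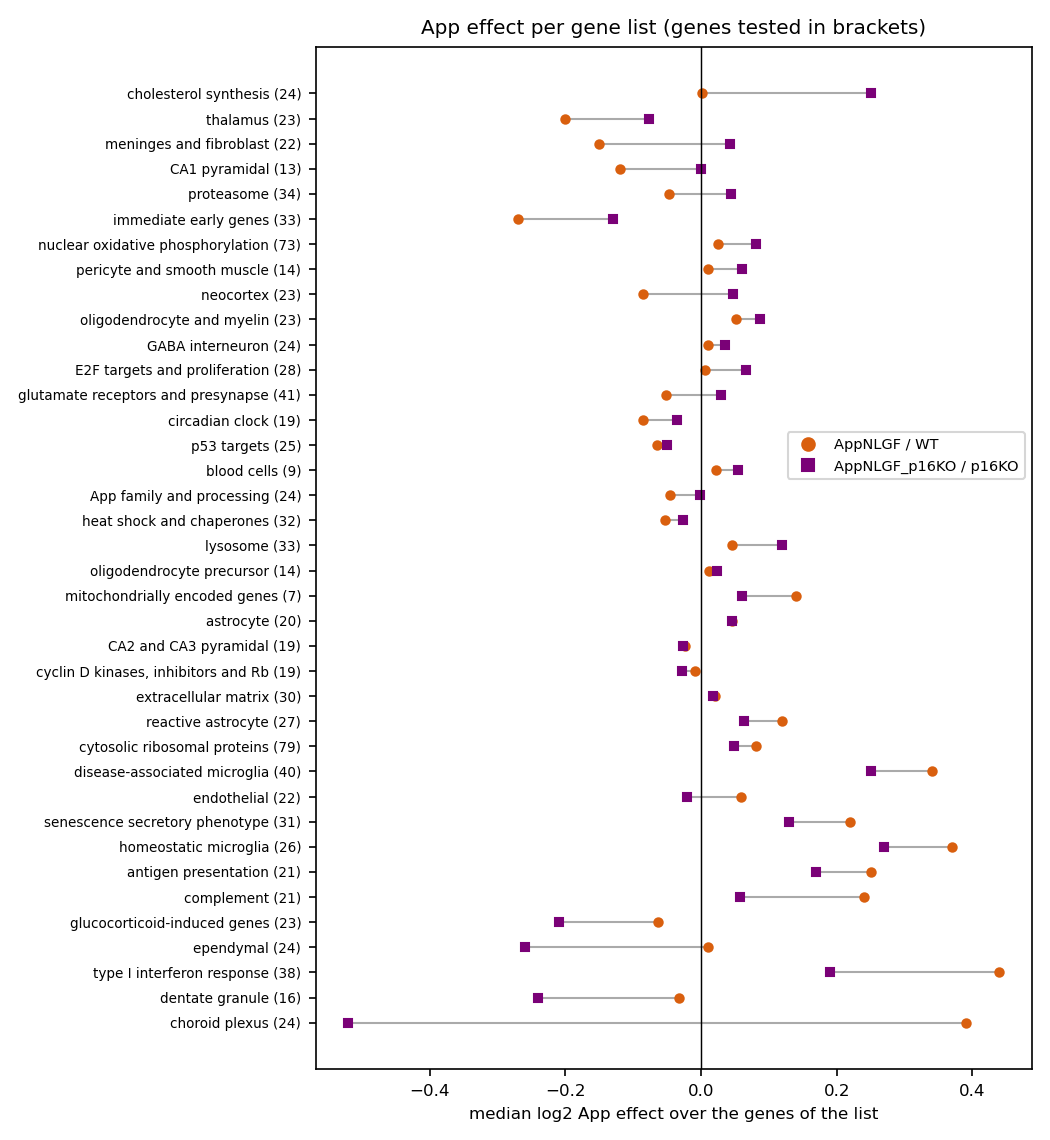
Median App effect (log2) over the tested genes of each of 38 lists, with p16 (orange circles) and without p16 (purple squares), ordered by the median interaction. The choroid plexus, ependymal, interferon and cholesterol lists show the widest gaps, and the microglial lists lie to the right in both backgrounds.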

How the data were processed

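Poly-A RNA of both hippocampi from 23 mice was sequenced, and the genotype of each library was taken from its label. Trimming used cutadapt 4.2, removal of ribosomal reads used Bowtie2 2.3.5 and alignment used STAR 2.7.10b, all per the submitters' processing notes. What the authors deposited are raw counts of uniquely aligned reads per gene on GRCm38, not normalised, as the file's whole numbers show. Strand was kept by the library kit. Gene names and positions are those of the deposited table. Total counts were 40693561 to 61178839 per library. Without molecular identifiers, statements on depth cover counting error only.

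Differences were tested with edgeR 4.0.16 under R 4.3.3, with TMM scaling, filterByExpr with a minimum of 10 counts, and a robust two-sided quasi-likelihood test in 1 model of the 4 genotypes. P-values were adjusted by Benjamini-Hochberg over 19423 genes at a threshold of 0.05. Errors after ± are SE for log2 differences and SD for levels, and CPM are on TMM-scaled totals. List levels are means of log2 (CPM + 0.5). The procedure was tested on simulated data. The 55 pairs of libraries within a genotype differed by more than sampling noise (chi-square per degree of freedom 11.9 to 147), so none was merged.

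The members, the 38 lists, the tests and the naming rules were chosen with earlier results of these data known. Named genes were the 8 positive and 8 negative genes with the smallest interaction p (predicted genes left out), the 12 rising and 4 falling genes of the average App effect with the smallest p, the leading members of each list, and Cdkn2a, Cdkn2b, Mtap and App. Others (Alad, Hdhd3, the genes at an unadjusted p below 0.05 in a group) were named after their values were seen. Some genes that these rules name are not reported here. Promoter windows and motif shares come from RefSeq (GRCm38.p6). Alternatives were DESeq2 1.42.0, limma voom 3.58.1 with library quality weights, RLE scaling, other count filters, a fit without robust dispersion, 1 surrogate variable (sva 3.50.0), a sex score, other thresholds, omission of chromosomes 4 and 16, omission of each library in turn, and of library 21 by the distance limit. Omission of AppNLGF_p16KO 22 and 23 together was added after seeing the data.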

Additional observations from a re-analysis of the deposited data

Results flagged for a closer look

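Of 120 groups of 5 or 6 libraries examined for the genes and lists shown by library, 13 held a library set apart from the rest of its group by a gap that is large against the group's range. Chance gives about 1 in 20 such groups, so several of these may be chance. Among genes, C1qa was low at 52.7 CPM in AppNLGF library 16 (next 65.0), Lgi2 was high at 147.5 in AppNLGF_p16KO library 21 (next 95.7), and Egr2 was high at 5.70 in WT library 1 (next 3.77). Hsd17b7 was high at 34.8 CPM in p16KO library 8 (next 31.0), and Mx1 was low at 0.0741 in p16KO library 11 (next 0.154). Lcn2 was high in 3 groups, at 19.2 CPM in p16KO library 7 (next 0.251), 1.15 in AppNLGF library 14 (next 0.286) and 0.153 in WT library 6 (next 0.0682). Its interaction of -6.72 ± 2.11 log2 became -2.12 without p16KO library 7.

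Among lists, the mean log2 level was high for interferon-stimulated genes in AppNLGF library 17 (2.64, next 2.05), for thalamic genes in WT library 4 (4.72, next 3.58) and for glucocorticoid-induced genes in p16KO library 7 (5.43, next 4.84). AppNLGF_p16KO library 23 was low for immediate early genes (4.38, next 4.56) and high for extracellular matrix genes (4.26, next 3.79).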

How the results depend on the processing

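No paired analysis was possible because library numbers run from 1 to 23 and no number is shared between genotypes. DESeq2 called 1 gene for the interaction; every other alternative called 0, and 0 was also the lowest and highest count when each library was left out. The share of genes at an unadjusted p below 0.05 ran from 3.53% (without AppNLGF library 15) to 11.8% (without AppNLGF_p16KO library 23), was 8.04% with voom quality weights, and was 15.3% without AppNLGF_p16KO libraries 22 and 23. The number of App response genes, 154, was 285 with DESeq2, 89 at an adjusted p of 0.01 and 100 where the 100 smallest p were taken, and their r was 0.587 with DESeq2 and 0.89 without a count filter. The share of them with a smaller effect without p16 was 68.8% and ran from 57.8 to 77.2%. Its standard error by the jackknife, which leaves out each library in turn, was 21 percentage points. Over all genes tested the share was 50.5%. The interferon median ran from -0.32 to -0.034 over single libraries left out, the last without AppNLGF library 17. The E2F median became -0.03 with voom quality weights, and the oligodendrocyte precursor median became -0.13 without libraries 22 and 23. Interactions near 0 changed sign: leaving out single libraries gave -0.25 to 0.55 for Cst7, -0.2 to 0.1 for Clec7a, -0.15 to 0.03 for Ccl6, -0.03 to 0.16 for Cd52, -0.03 to 0.08 for Fosl2, -0.01 to 0.04 for Tsc22d1, -0.12 to 0.01 for Adarb1, -0.28 to 0.02 for Cdkn2b and -0.05 to 0.12 for Hdhd3. Voom gave 0.09 for Clec7a, -0.06 for Cd52 and -0.01 for Tsc22d1, the distance limit -0.01 for Tsc22d1, and omission of libraries 22 and 23 -0.12 for Cst7, -0.1 for Cd52, -0.02 for Fosl2 and 0 for Cdkn2b. The cause of these changes was not tested. The other values, 4502 in number, counted as unchanged under a wide rule. Single genes had to keep their sign and side of the threshold. List medians had to move by less than the SD of the list's level between libraries, and App response values by less than their jackknife standard error. A list median can change sign under this rule, as the thalamic one did (0.21, and -0.037 without WT library 4). The count of 4502 therefore says little about small medians. The number of mice limits single genes to differences near 0.929 log2 at the median error.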

Other observations

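The count of genes called for the loss of p16 changed when 2 libraries were left out. In AppNLGF_p16KO against AppNLGF 6 genes (0.0309% of those tested) were called with all libraries, and 4203 of 19576 without AppNLGF_p16KO libraries 22 and 23, while the interaction stayed at 0 in both. The number called in p16KO against WT went from 60 to 184, and in AppNLGF_p16KO against p16KO from 48 to 109. Library 22 had the highest level of Rab3b, a synaptic vesicle GTPase, at 69.5 CPM, where the other AppNLGF_p16KO libraries had 36.8 to 55.0, p16KO had 29.0 to 46.3 and AppNLGF had 55.3, 55.4, 53.5, 51.4 and 59.9. Libraries 22 and 23 were picked out by their Alad and Hdhd3 levels after the values were seen.

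Other groups of genes leaned 1 way by small amounts. Of 73 nuclear genes of oxidative phosphorylation 53 had a positive interaction (median 0.077 log2), of 34 proteasome genes 28 (median 0.096), and of 79 cytosolic ribosomal protein genes 32 (median -0.052), with 0 genes passing in any of them. Leaving out single libraries gave 0.036 (without AppNLGF_p16KO library 21) to 0.13 (without AppNLGF_p16KO library 23), 0.06 (without AppNLGF library 16) to 0.14 (without AppNLGF_p16KO library 23), and -0.098 (without AppNLGF library 16) to -0.013 (without AppNLGF_p16KO library 23), in that order. The estimate of p16 loss had an r of 0.72 between AppNLGF_p16KO minus AppNLGF and p16KO minus WT across 6471 abundant genes, and the App effect an r of 0.115 between backgrounds. Across all 19423 genes these were 0.357 and 0.196. These correlations are across genes, and each pair rests on separate libraries.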
